A study of Arabidopsis thaliana with 8 samples.

Results

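The stomatal lineage genes described here are 10 *Arabidopsis thaliana* genes chosen by name for their known roles: *SPCH* (AT5G53210), *MUTE* (AT3G06120), *FAMA* (AT3G24140), *SCRM* (AT3G26744), *TMM* (AT1G80080), *EPF1* (AT2G20875), *EPF2* (AT1G34245), *BASL* (AT5G60880), *POLAR* (AT4G31805) and *SDD1* (AT1G04110). The choice was made with earlier results of these data known. The genes are 10 of the 37336 genes in the count table, and 10 of the 23916 genes that passed the filter on low counts. RNA was sequenced from rosette leaves of *mips1*, *somi2*, the *mips1 somi2* double mutant and the wild type Col-0, with 2 libraries for each of the 4 genotypes. The *mips1* plants lack normal function of *MIPS1*, which encodes an enzyme of myo-inositol synthesis, and develop leaf lesions in long days. The *somi2* plants carry a mutation in *BIG*, which encodes a very large calossin-like protein, and *somi2* was found as a suppressor of those lesions after chemical mutagenesis. Each mutant is a single line in the Col-0 background, so other mutations that came along with *somi2* cannot be told apart from it, and the deposited labels call this mutant big without naming the allele. All plants, Col-0 included, were grown for 1 week in vitro, for 2 weeks in short days and for 5 days in long days per the labels, whereas the methods of the study give other lengths for the RNA samples. Leaves of several plants were pooled for each extraction. The sources do not say whether the 2 libraries of a genotype came from separate cultures, so p-values measure the spread between libraries, which may be technical.

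Stomata are pores bounded by a pair of guard cells, and they arise in the young leaf epidermis from a short lineage of dividing precursors. The transcription factor SPEECHLESS (SPCH) starts the lineage and its asymmetric divisions, MUTE ends these divisions, and FAMA promotes guard cell identity at the last, symmetric division. SCRM, also called ICE1, is the partner of these factors. Peptides of the EPF family, read by TMM and receptors of the ERECTA family and passed on through a MAP kinase cascade, limit how many cells enter the lineage and how they are spaced, while BASL and POLAR mark a side of the dividing cell. In mature rosette leaves most epidermal cells have left this lineage.

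The libraries held 50123257 to 104501879 counts. A level is given below in CPM, the counts of a gene scaled to a common library size with edgeR's TMM factors. The detection limit was set at 3 counts, at or below which no signal was read. On the CPM scale 3 counts correspond to 0.0273 to 0.0716 depending on the library. *MIPS1* had 5.30 and 6.12 CPM in *mips1*, 104 and 94.7 CPM in *somi2*, 9.85 and 10.8 CPM in *mips1 somi2*, and 120 and 152 CPM in Col-0, with replicate 1 before replicate 2 as everywhere below. *BIG* had 205 and 212 CPM in *mips1*, 57.2 and 62.1 CPM in *somi2*, 93.4 and 89.9 CPM in *mips1 somi2*, and 113 and 132 CPM in Col-0. The leaf label was met by the mesophyll markers *RBCS1A*, *RBCS2B*, *LHCB1.3* and *CA1*, whose summed level was 11814 to 12126 CPM in *mips1*, 27151 to 27766 CPM in *somi2*, 21288 to 23128 CPM in *mips1 somi2*, and 39629 to 42366 CPM in Col-0. Chloroplast and mitochondrial genes took 2.67% of the counts of Col-0 replicate 1 and 0.926% of Col-0 replicate 2, and every comparison below with Col-0 rests on this pair of libraries. *GL1*, a MYB factor that starts leaf hairs, had 0 counts in the *mips1* and the Col-0 libraries. It had 164 and 159 counts in *somi2* and 219 and 226 counts in *mips1 somi2*. The lines with the *BIG* mutation thus differed from Col-0 in transcripts of this gene, which the labels do not name, and the cause was not tested. A gene is called where its p, adjusted by the Benjamini-Hochberg method over all tested genes, lay below 0.05 under the quasi-likelihood test of edgeR. Scaling by library totals alone moved the median gene by 0.30 (log2) in *mips1* against Col-0, by 0.27 in *somi2* against Col-0 and by 0.38 in *mips1 somi2* against Col-0, and the share of called genes that were higher was then 67.4% in *mips1* in place of 49.2%, 84.5% in *somi2* in place of 52.1%, and 82.8% in *mips1 somi2* in place of 50.3%.

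All 10 genes were lower in *mips1* leaves than in Col-0 and higher in *somi2* leaves than in Col-0, and in the double mutant they stood within 0.33 (log2) of *somi2*, with the exception that *SCRM* in *mips1* had a log2 change of 0.08 under scaling by library totals alone, which is -0.22 relative to the median gene of that scaling. The rise in *somi2* was largest for *EPF2*, *POLAR*, *BASL* and *SPCH*, genes of the early asymmetric divisions, and in both single mutants *FAMA* and *SCRM* differed least. In *mips1*, 10 of 10 were called lower, against a background of 37.1% of all tested genes called lower. Under scaling by library totals alone 8 of 10 were called lower, against 5813 of the 23916 tested genes. In *somi2*, 10 of 10 were called higher, against a background of 25.6%. In *mips1 somi2* against Col-0, 10 of 10 were called higher, against 31.1%. The genes were chosen with earlier results of these data known, so these counts are descriptions. The 2 libraries lay below both of Col-0 for 10 of 10 genes in *mips1* (42.9% of all tested genes) and above both for 10 of 10 in *somi2* (36.7%). The plot of levels by library shows each value.

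**Figure D1:**
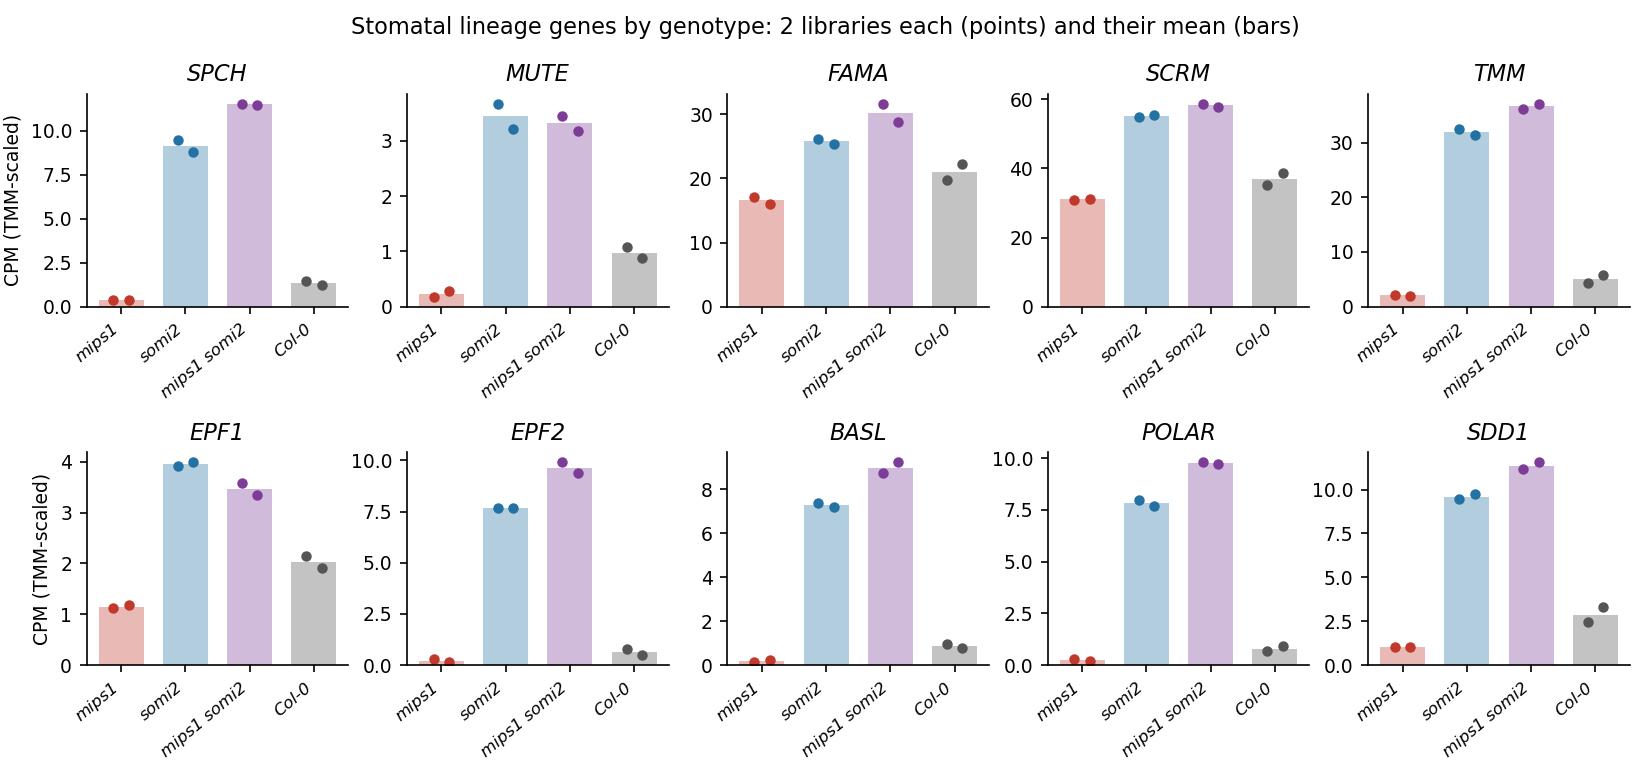
Level in CPM (linear axis from 0, a separate scale for each gene) of the 10 stomatal lineage genes in *mips1*, *somi2*, *mips1 somi2* and Col-0. Points are the 2 libraries of a genotype and bars their mean. For *SPCH* the *mips1* libraries were at 0.377 and 0.355 CPM and the *mips1 somi2* libraries both at 11.5 CPM, while *FAMA* stayed between 16.1 and 31.6 CPM over all libraries.

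The letters before 4 of the genes are shown to give the sequence context of *SPCH*, *EPF2* and *BASL*, with large rises in *somi2*, and of *FAMA*, with a small change. They are the 250 bases before the annotated gene start, read 5′ to 3′ on the strand of the gene from the TAIR10.1 genome of RefSeq, whose gene ends equal those of the count table for all 10 genes. Capitals mark the E-box letters CANNTG, where N is any base, the core that basic helix-loop-helix factors such as SPCH and SCRM are known to bind. A stretch that matches this pattern on a strand also matches it on the other, though its letters there can differ. The windows are chr5:21589256-21589505 (minus strand) for *SPCH*, chr1:12472618-12472867 (plus strand) for *EPF2*, chr5:24489837-24490086 (minus strand) for *BASL* and chr3:8718212-8718461 (minus strand) for *FAMA*.
SPCH: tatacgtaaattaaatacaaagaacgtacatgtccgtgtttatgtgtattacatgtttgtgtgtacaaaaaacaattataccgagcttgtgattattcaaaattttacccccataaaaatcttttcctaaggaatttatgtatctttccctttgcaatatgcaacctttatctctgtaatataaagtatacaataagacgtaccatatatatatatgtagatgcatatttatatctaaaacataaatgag
EPF2: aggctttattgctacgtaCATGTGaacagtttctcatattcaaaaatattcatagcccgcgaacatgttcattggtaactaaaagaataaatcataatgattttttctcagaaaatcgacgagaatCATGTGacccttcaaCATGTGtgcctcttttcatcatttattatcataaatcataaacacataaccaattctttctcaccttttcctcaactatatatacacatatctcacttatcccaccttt
BASL: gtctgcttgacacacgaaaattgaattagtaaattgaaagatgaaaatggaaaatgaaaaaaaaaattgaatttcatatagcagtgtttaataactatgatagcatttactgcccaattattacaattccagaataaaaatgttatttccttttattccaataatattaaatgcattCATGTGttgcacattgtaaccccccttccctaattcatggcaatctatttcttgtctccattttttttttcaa
FAMA: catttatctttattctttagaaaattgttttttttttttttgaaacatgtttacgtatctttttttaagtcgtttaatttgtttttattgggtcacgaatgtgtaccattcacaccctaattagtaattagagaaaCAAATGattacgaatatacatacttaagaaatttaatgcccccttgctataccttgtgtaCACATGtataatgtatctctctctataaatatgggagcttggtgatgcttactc
The window of *SPCH* held no E-box, that of *EPF2* 3, that of *BASL* 1 and that of *FAMA* 2. Over the 10 genes, 7 windows held at least 1, with none in *SCRM* and *TMM* besides *SPCH*, and 55.3% of the windows of this length before 27437 protein-coding genes did. The G-box CACGTG, a special case of the E-box, was in none of the 10 windows and in 6.49% of all. A match is a description of the letters and not a binding site.

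*SPCH* (chromosome 5, 21586219 to 21589255, minus strand, TAIR10) encodes the basic helix-loop-helix factor that commits cells to the lineage. It had 0.377 and 0.355 CPM in *mips1* (27 and 39 counts), 9.45 and 8.81 CPM in *somi2*, 11.5 CPM in both *mips1 somi2* libraries, and 1.43 and 1.21 CPM in Col-0 (60 and 103 counts). The genotypes did not overlap. The log2 fold change was -1.83 ± 0.16 (SE) in *mips1* and 2.81 ± 0.12 in *somi2*, both against Col-0, a level 3.56-fold lower and 7.02-fold higher (adjusted p = 3.3e-07 and 3.6e-09, edgeR).

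*EPF2* (chromosome 1, 12472868 to 12473974, plus strand) encodes the secreted peptide of early lineage cells that keeps neighbours from entering the lineage. It had 0.294 and 0.146 CPM in *mips1* (21 and 16 counts), 7.69 CPM in both *somi2* libraries, 9.91 and 9.37 CPM in *mips1 somi2*, and 0.812 and 0.494 CPM in Col-0 (34 and 42 counts). Of the 10 genes it had the largest rise in *somi2*, with a log2 fold change of 3.64 ± 0.21 (12.5-fold, adjusted p = 7.1e-08, edgeR), and in *mips1* it fell by 1.56 ± 0.31 on the log2 scale (adjusted p = 0.00063, edgeR). The *mips1* and Col-0 libraries were apart, but both rested on under 50 counts.

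*BASL* (chromosome 5, 24488289 to 24489836, minus strand) and *POLAR* (chromosome 4, 15385280 to 15387097, plus strand) encode proteins that gather at a side of the cell cortex during asymmetric division. *BASL* had 0.140 and 0.237 CPM in *mips1* (10 and 26 counts), 7.38 and 7.21 CPM in *somi2*, 8.75 and 9.24 CPM in *mips1 somi2*, and 0.979 and 0.776 CPM in Col-0 (41 and 66 counts). It had the largest fall of the 10 genes in *mips1*, with a log2 fold change of -2.11 ± 0.23 (4.31-fold lower, adjusted p = 3e-06, edgeR), and it rose by 3.09 ± 0.16 in *somi2* (8.52-fold, adjusted p = 1.7e-08, edgeR). *POLAR* had 0.280 and 0.228 CPM in *mips1*, 7.98 and 7.68 CPM in *somi2*, 9.80 and 9.70 CPM in *mips1 somi2*, and 0.669 and 0.929 CPM in Col-0. Again no library of a mutant reached the range of Col-0. Its log2 fold change was -1.73 ± 0.21 in *mips1* and 3.24 ± 0.14 in *somi2* (adjusted p = 6.9e-06 and 5.9e-09, edgeR). *POLAR* shares 310 of its 1531 exon bases (20.25%) with AT4G31810 on the opposite strand, and the counting used no strand, so reads of the shared stretch were given to both genes. AT4G31810 itself had 11 and 11.8 CPM in *mips1*, 22.5 and 23.6 CPM in *somi2*, 23.5 and 27.9 CPM in *mips1 somi2*, and 9.67 and 10.06 CPM in Col-0, and its part in the values of *POLAR* was not tested.

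*TMM* (chromosome 1, 30127819 to 30129649, minus strand) encodes the leucine-rich repeat receptor-like protein that acts with the ERECTA family. It had 2.19 and 1.94 CPM in *mips1*, 32.5 and 31.4 CPM in *somi2*, 36.2 and 37.1 CPM in *mips1 somi2*, and 4.35 and 5.80 CPM in Col-0. The log2 fold change was -1.33 ± 0.12 in *mips1* and 2.63 ± 0.11 in *somi2* (6.17-fold, adjusted p = 3.6e-09, edgeR). *SDD1* (chromosome 1, 1061297 to 1063809, minus strand) encodes a subtilisin-like protease that lowers stomatal number. It had 1.05 and 1.02 CPM in *mips1*, 9.47 and 9.74 CPM in *somi2*, 11.2 and 11.6 CPM in *mips1 somi2*, and 2.44 and 3.32 CPM in Col-0. Its log2 fold change was -1.51 ± 0.15 in *mips1* and 1.71 ± 0.13 in *somi2* (adjusted p = 1e-06 and 4.1e-07, edgeR).

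*MUTE* (chromosome 3, 1846442 to 1848259, plus strand), which turns a meristemoid into a guard mother cell, had 0.182 and 0.282 CPM in *mips1* (13 and 31 counts), 3.67 and 3.22 CPM in *somi2*, 3.45 and 3.18 CPM in *mips1 somi2*, and 1.07 and 0.882 CPM in Col-0 (45 and 75 counts). Its log2 fold change in *mips1* was -1.99 ± 0.24 (adjusted p = 7.4e-06, edgeR), the largest fall after that of *BASL*. In *somi2* it rose by 1.84 ± 0.18 (3.58-fold), less than *EPF2*, *POLAR*, *BASL*, *SPCH* and *TMM* did. *EPF1* (chromosome 2, 8982863 to 8983814, minus strand), the peptide of later precursors that orients spacing divisions, had 1.12 and 1.18 CPM in *mips1*, 3.91 and 3.99 CPM in *somi2*, 3.57 and 3.34 CPM in *mips1 somi2*, and 2.15 and 1.91 CPM in Col-0. Its log2 fold change was -0.80 ± 0.14 in *mips1* and 0.97 ± 0.13 in *somi2*.

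*FAMA* (chromosome 3, 8715118 to 8718211, minus strand) had 17.2 and 16.1 CPM in *mips1*, 26.1 and 25.4 CPM in *somi2*, 31.6 and 28.7 CPM in *mips1 somi2*, and 19.8 and 22.3 CPM in Col-0. The groups did not overlap, but the log2 fold change was only -0.34 ± 0.08 in *mips1* and 0.29 ± 0.08 in *somi2* (adjusted p = 0.0016 and 0.0086, edgeR). The call in *somi2* was lost without *somi2* replicate 1 (adjusted p = 0.067, edgeR). *SCRM* (chromosome 3, 9832667 to 9835279, minus strand) had 31.0 and 31.1 CPM in *mips1*, 54.8 and 55.5 CPM in *somi2*, 58.7 and 57.8 CPM in *mips1 somi2*, and 35.3 and 38.7 CPM in Col-0. It rose by 0.57 ± 0.07 in *somi2* (1.49-fold, adjusted p = 1.6e-05, edgeR), and its log2 change in *mips1* was -0.25 ± 0.07. Under scaling by library totals alone the change in *mips1* was -0.01 for *FAMA* and 0.08 for *SCRM*, which lay 0.31 and 0.22 below the shifted median of all genes, and neither was called (adjusted p = 0.88 and 0.33, edgeR). Without *mips1* replicate 1 the call of *SCRM* in *mips1* was lost too (adjusted p = 0.052, edgeR).

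Over the 10 genes the median log2 fold change was -1.53 in *mips1*, against -0.03 over all tested genes, and 2.23 in *somi2*, against -0.0018 over all tested genes. A change of at least 2-fold with a call was found for 7 of the 10 in *mips1* (background 14.3% of all tested genes, lower) and for 7 of the 10 in *somi2* (background 9.03%, higher). *EPF1*, *FAMA* and *SCRM* fell short in both. Both comparisons use the same Col-0 libraries, so their values are not independent of each other.

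**Figure D2:**
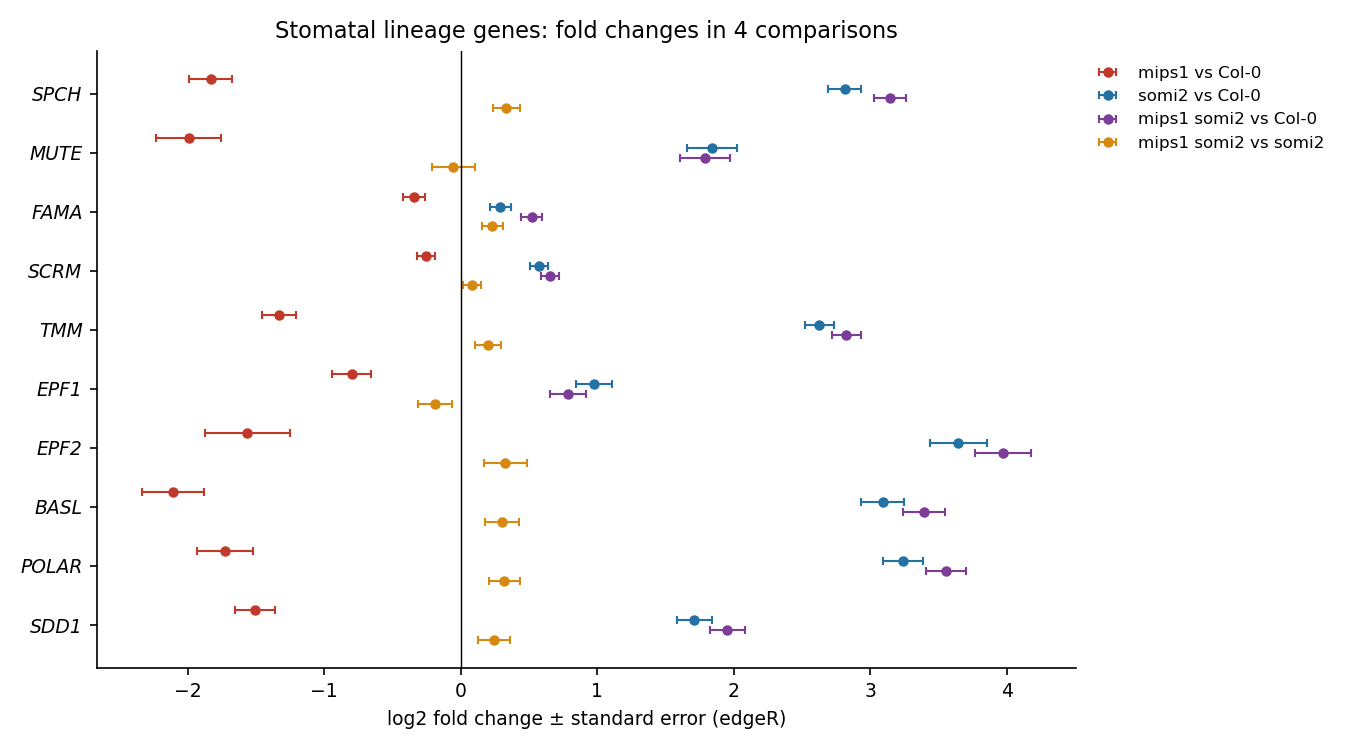
log2 fold change (x axis, points) with its standard error (bars) of each stomatal lineage gene in *mips1*, *somi2* and *mips1 somi2* against Col-0 and in *mips1 somi2* against *somi2*. All points of *mips1* lie below 0, from -2.11 to -0.25 (*SCRM* was at 0.08 with library totals alone, and at -0.22 relative to the median gene there), those of *somi2* above, from 0.29 to 3.64, and those of *mips1 somi2* against *somi2* between -0.19 and 0.33.

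Levels of different genes can be set side by side only per length of transcript. On that scale (CPM per kilobase of exon, mean of 2 libraries) the order in Col-0 was *SCRM* at 14.7, *FAMA* at 8.86, *TMM* at 2.77, *EPF1* at 2.34, *SDD1* at 1.15, *MUTE* at 1.04, *EPF2* at 0.789, *BASL* at 0.692, *SPCH* at 0.607 and *POLAR* at 0.522, and from *SDD1* downward each gene overlapped the next in its libraries, as did *TMM* and *EPF1*. In *mips1* the order began with *SCRM* at 12.3 and *FAMA* at 7.0 and ended with *SPCH* at 0.168, *POLAR* at 0.166 and *BASL* at 0.148, which overlapped. In *somi2*, *TMM* at 17.4 and *EPF2* at 9.29 stood next to *SCRM* at 21.9 and *FAMA* at 10.9, and *SDD1* at 3.82 and *MUTE* at 3.66 were last and overlapped. In *mips1 somi2* no neighbours overlapped, with *SCRM* at 23.1 first and *MUTE* at 3.52 last.

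The ratio of 2 genes within a library does not depend on how libraries are scaled. Per 100 counts of *FAMA*, *SPCH* had 2.20 and 2.21 counts in *mips1*, 36.2 and 34.7 in *somi2*, 36.5 and 39.9 in *mips1 somi2*, and 7.25 and 5.44 in Col-0. *TMM* had 12.8 and 12.1 per 100 counts of *FAMA* in *mips1*, 125 and 124 in *somi2*, 114 and 129 in *mips1 somi2*, and 22.0 and 26.1 in Col-0. For both genes *mips1* lay below and *somi2* above Col-0 on this scale as well. *EPF1* differed less, with 6.51 and 7.37 in *mips1*, 15.0 and 15.7 in *somi2*, 11.3 and 11.6 in *mips1 somi2*, and 10.9 and 8.56 in Col-0. *SCRM* had 180 and 194 in *mips1*, 210 and 218 in *somi2*, 186 and 201 in *mips1 somi2*, and 179 and 174 in Col-0, the narrowest relative range of the 9 genes. A ratio shows unequal change and not which of the 2 genes changed.

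**Figure D3:**
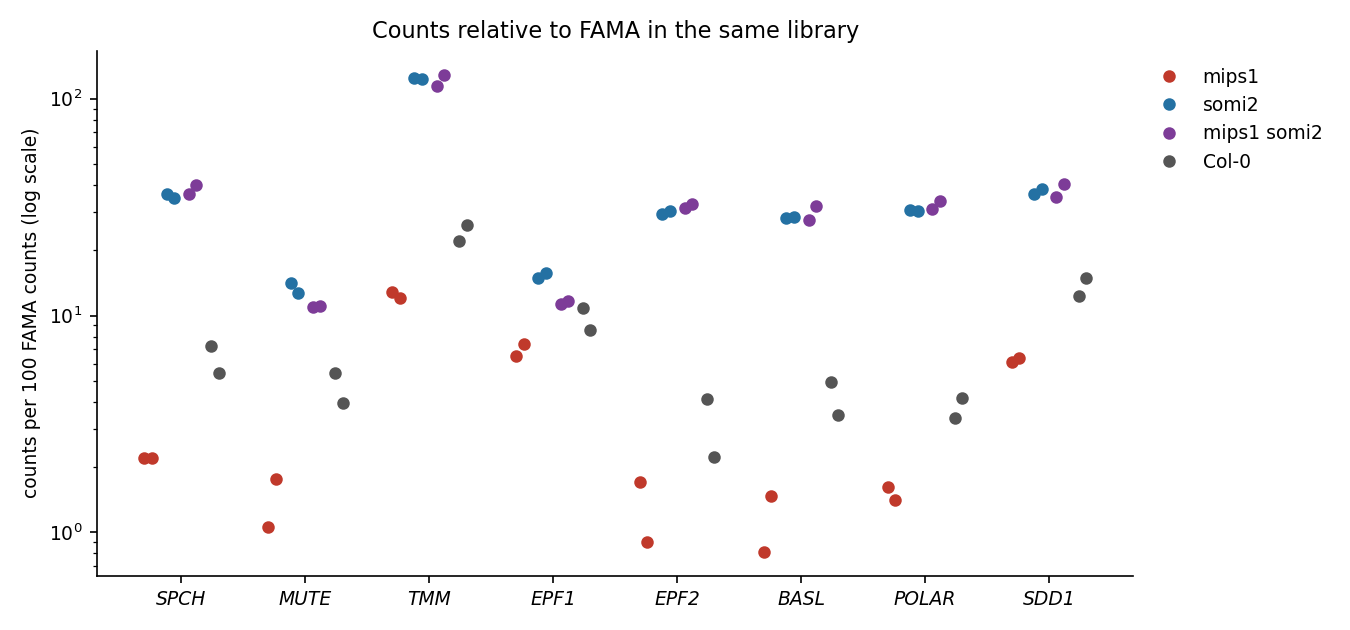
Counts of 8 stomatal lineage genes per 100 counts of *FAMA* in the same library (log axis), with 2 libraries (points) for *mips1*, *somi2*, *mips1 somi2* and Col-0, a scale free of library normalization. *SPCH* was at 2.20 and 2.21 in *mips1*, 34.7 to 39.9 in *somi2* and *mips1 somi2*, and 5.44 to 7.25 in Col-0.

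The double mutant set against *somi2* shows whether these genes were still lower with the *mips1* mutation when *BIG* was mutated. The paper describes repeated crosses of *mips1 somi2* to Col-0 to obtain *somi2*, so other mutations may differ between these lines. The effect of *mips1* cannot be told apart from such differences. None of the 10 was called lower in *mips1 somi2* than in *somi2* by edgeR or by DESeq2, and 0 were lower at an unadjusted p under 0.05. In *mips1 somi2* against *somi2*, 1 of the 10 was called, *SPCH*, which was higher with a log2 fold change of 0.33 ± 0.10 (adjusted p = 0.032, edgeR), against a background of 8.46% of all tested genes called higher and 10.8% called lower. Both *mips1 somi2* libraries were above both *somi2* libraries for 8 of 10 genes (32.2% of all tested genes), those of *EPF1* were below, and those of *MUTE* overlapped. Of the other 9 genes, *EPF1* had the lowest 95% interval (-0.46 to 0.08) and *EPF2* the highest (-0.02 to 0.67), so a 2-fold change in either direction lay outside each interval. For *BASL* the interval was 0.03 to 0.57, for *POLAR* 0.07 to 0.56, for *FAMA* 0.06 to 0.40, and for *MUTE* -0.40 to 0.29. The number called higher in this comparison depended on the setting: it was 0 when any single *somi2* or *mips1 somi2* library was left out and 7 when the fit held only these 2 genotypes or lacked either Col-0 library. DESeq2 also called 1, *FAMA* in place of *SPCH* (adjusted p = 0.049 and 0.071, DESeq2).

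Against *mips1*, all 10 genes were higher in *mips1 somi2* (10 of 10 called, background 39.1%), from 0.86 ± 0.08 for *FAMA* and 0.91 ± 0.07 for *SCRM* to 5.50 ± 0.18 for *BASL* and 5.53 ± 0.23 for *EPF2* on the log2 scale. For *EPF2* that was 46.3-fold, for *BASL* 45.3-fold, for *POLAR* 38.9-fold and for *SPCH* 31.4-fold, all from low counts in *mips1*. Against Col-0 the double mutant was higher by 3.97 ± 0.21 for *EPF2*, 3.55 ± 0.14 for *POLAR*, 3.39 ± 0.16 for *BASL*, 3.14 ± 0.12 for *SPCH*, 2.82 ± 0.11 for *TMM*, 1.95 ± 0.13 for *SDD1*, 1.79 ± 0.18 for *MUTE*, 0.78 ± 0.13 for *EPF1*, 0.65 ± 0.07 for *SCRM* and 0.52 ± 0.08 for *FAMA*.

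The difference between the 2 effects of the *mips1* mutation, that in the *somi2* background minus that in the Col-0 background, was tested directly as an interaction. This difference includes the effects of any other mutations by which *mips1 somi2* and *somi2* differ. It was positive and called for 10 of 10 genes, against a background of 30.8% of all tested genes, with a median of 1.82 (log2), against 0.02 over all tested genes. The values ran from 2.41 ± 0.26 for *BASL* (adjusted p = 4.8e-06, edgeR) and 2.16 ± 0.19 for *SPCH* (adjusted p = 5.9e-07, edgeR) down to 0.61 ± 0.19 for *EPF1* (adjusted p = 0.013, edgeR), 0.57 ± 0.11 for *FAMA* and 0.33 ± 0.09 for *SCRM*. For *EPF1* the call was lost under DESeq2 (adjusted p = 0.074), under scaling by library totals alone, and without *mips1* replicate 1, *somi2* replicate 1 or *mips1 somi2* replicate 1. For *SCRM* it was lost under scaling by library totals alone, where its value was 0.11 (adjusted p = 0.32, edgeR). The directions of all 10 held in each of these settings.

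In the lists of other genes that follow, counts can be read against the 36.0% of all tested genes called higher in *mips1* and the 23.6% called lower in *somi2*, beside the shares given above. Counts under scaling by library totals alone have a background of their own. Of 23916 tested genes, that scaling called 12033 higher and 5813 lower in *mips1*, and 11506 higher and 2109 lower in *somi2*. The other peptides of the EPF family moved unevenly. *EPFL9*, or STOMAGEN, made by mesophyll and known to raise stomatal number, had 3.48 and 2.86 CPM in *mips1*, 19.2 and 17.1 CPM in *somi2*, 17.0 and 19.3 CPM in *mips1 somi2*, and 17.5 and 13.3 CPM in Col-0. It fell by 2.28 ± 0.15 on the log2 scale in *mips1* (adjusted p = 1.5e-07, edgeR), and in *somi2* its libraries overlapped those of Col-0 (0.25 ± 0.13). *EPFL6*, or CHALLAH, was near the detection limit in Col-0 with 3 and 7 counts and in *mips1* with 9 and 10 counts, while *somi2* held 122 and 124 counts and *mips1 somi2* 204 and 154. *EPFL4* had 4 and 5 counts in *mips1*, 37 and 47 in *somi2*, 66 and 41 in *mips1 somi2*, and 3 and 4 in Col-0. Both were called higher in *somi2* than in Col-0 (adjusted p = 9.5e-08 for *EPFL6* and 3.5e-05 for *EPFL4*, edgeR). *EPFL5* was called lower in *mips1* (-1.63 ± 0.28) and in *somi2* (-0.68 ± 0.27), where the adjusted p was 0.049 (edgeR) and the call was lost under scaling by library totals alone. In this list of 4, then, 2 were called lower and none higher in *mips1*, and 2 were called higher and 1 lower in *somi2*. Under scaling by library totals alone 3 were called higher and 0 lower in *somi2*.

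Of the 7 other receptors and co-receptors, 5 were called lower and 2 higher in *mips1*, and 4 were called higher and none lower in *somi2* (6 higher under scaling by library totals alone). The receptor kinase *ER* had 25.1 and 24.4 CPM in *mips1*, 89.4 and 89.3 CPM in *somi2*, 108 and 106 CPM in *mips1 somi2*, and 45.7 and 49.2 CPM in Col-0, with log2 fold changes of -0.94 ± 0.06 in *mips1* and 0.91 ± 0.06 in *somi2*. Its relative *ERL1* had 1.22 and 1.18 CPM in *mips1*, 5.52 and 5.62 CPM in *somi2*, 6.24 and 7.04 CPM in *mips1 somi2*, and 2.29 and 2.06 CPM in Col-0, and rose by 1.37 ± 0.12 in *somi2*. *ERL2* fell by 0.99 ± 0.09 on the log2 scale in *mips1*. Unlike these, the co-receptor kinases *SERK4* and *BAK1*, which also serve in immunity and brassinosteroid signalling, were called higher in *mips1* (2.78 ± 0.09 and 1.09 ± 0.07). *SERK4* had 99.9 and 101 CPM in *mips1*, 14.4 and 17.0 CPM in *somi2*, 19.8 and 18.1 CPM in *mips1 somi2*, and 14.3 and 14.9 CPM in Col-0, with *mips1* far above the other lines.

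The MAP kinase cascade that carries the peptide signal went the other way from the lineage genes in *mips1*, with 6 of 7 called higher and none lower. The largest changes were those of *MPK3* (1.80 ± 0.07, 305 and 319 CPM in *mips1* and 89.6 and 89.0 CPM in Col-0) and *MKK4* (1.80 ± 0.10). In *somi2*, 4 of 7 were called higher and 1 lower, none by 2-fold, with *MKK9* at 0.70 ± 0.07, *MPK3* at 0.33 ± 0.07 and *MPK6* at -0.34 ± 0.07, and under scaling by library totals alone none was called lower. *MPK3*, *MKK4*, *MKK5* and *MKK9* also act in immune signalling.

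Of the 6 other transcription factors of the lineage, 5 were called lower and 1 higher in *mips1*, and 3 higher and 3 lower in *somi2*. Scaling by library totals alone left 3 called lower in *mips1* and 0 called lower in *somi2*. *SCRM2*, the close relative of *SCRM*, had 13.3 and 13 CPM in *mips1*, 42.4 and 40.1 CPM in *somi2*, 38.5 and 39.7 CPM in *mips1 somi2*, and 34.2 and 34.6 CPM in Col-0 (-1.39 ± 0.06 in *mips1*). *FLP*, a MYB factor that ends the last division, fell by 1.20 ± 0.08 on the log2 scale in *mips1*. *HDG2*, an epidermal homeodomain factor, had 12.8 and 13.4 CPM in *mips1*, 25.3 and 27.0 CPM in *somi2*, 28.3 and 26.3 CPM in *mips1 somi2*, and 14.6 and 15.1 CPM in Col-0, and rose by 0.82 ± 0.07 in *somi2*. Among the polarity genes, *BRXL2* changed by -0.85 ± 0.09 in *mips1* and 0.64 ± 0.09 in *somi2*. AT5G10890 had 3 and 17 counts in *mips1*, 145 and 113 in *somi2*, 232 and 179 in *mips1 somi2*, and 12 and 26 in Col-0. It changed by -1.45 ± 0.41 in *mips1* and 2.63 ± 0.29 in *somi2*, and the value in *mips1* rests on these low counts, being -0.90 without *mips1* replicate 1 and -2.76 without *mips1* replicate 2. All 3 of this list were called lower in *mips1*, and 2 of 3 under scaling by library totals alone.

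Of the 8 cell division genes known from the lineage, 4 were called lower and 1 higher in *mips1*, and 6 were called higher and none lower in *somi2*. Scaling by library totals alone gave 3 higher in *mips1* and 8 higher in *somi2*, where 12033 and 11506 of the 23916 tested genes were called higher. *CYCA2;4*, an A-type cyclin, had 1.02 and 1.18 CPM in *mips1*, 7.73 and 7.82 CPM in *somi2*, 8.12 and 7.59 CPM in *mips1 somi2*, and 1.79 and 2.01 CPM in Col-0, a log2 fold change of 2.02 ± 0.12 in *somi2*. *CDKB1;1*, its kinase partner, changed by 2.01 ± 0.15 in *somi2*. In *mips1* the extremes were *CYCA2;3* at -1.55 ± 0.09 and *RBR1*, the retinoblastoma relative, at 0.47 ± 0.09.

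Markers of cells that divide in any tissue moved with the lineage genes. All 5 of them were called lower in *mips1* (-0.84 to -1.86) and all 5 higher in *somi2* (0.89 to 1.89), and their summed level was 11.5 to 13.3 CPM in *mips1*, 85.2 to 89.6 CPM in *somi2*, 96.9 to 97.9 CPM in *mips1 somi2*, and 30.4 to 34.6 CPM in Col-0. *KNOLLE*, the syntaxin of cytokinesis, had 2.82 and 3.66 CPM in *mips1*, 32.5 and 31.7 CPM in *somi2*, 34.6 and 36.6 CPM in *mips1 somi2*, and 8.88 and 10.9 CPM in Col-0. No marker of this list was at 0 in any library. The part of dividing cells in the values of the lineage genes was not tested. In bulk leaves, fewer cells of a type and less RNA per cell cannot be told apart, for these markers or for the lineage genes.

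Of 9 markers of mature guard cells, 6 were called lower and none higher in *mips1* (median log2 fold change -1.05, background 37.1% called lower), and 3 were called lower and none higher in *somi2* (median -0.14, background 23.6% called lower). In *somi2*, *KAT1*, a potassium channel, was at -0.96 ± 0.06 and *OST1*, an abscisic acid response kinase, at -0.42 ± 0.07. Scaling by library totals alone gave 4 higher and 1 lower in *somi2*, where 11506 of the 23916 tested genes were called higher and 2109 lower. At an unadjusted p under 0.05, 0 were higher in *somi2* by edgeR, DESeq2 called 0 higher, and leaving out Col-0 replicate 2 gave 1 higher. *KAT1* had 36.1 and 34.4 CPM in *mips1*, 19.5 and 19.7 CPM in *somi2*, 16.5 and 16.6 CPM in *mips1 somi2*, and 37.9 and 38.3 CPM in Col-0, and was low in both lines with the *BIG* mutation. Those called lower in *mips1* included AT1G22690 (-1.72 ± 0.07) and *MYB60* (-1.17 ± 0.09), and scaling by library totals alone gave 2 higher there. Their summed level was 184 to 186 CPM in *mips1*, 298 to 304 CPM in *somi2*, 252 to 253 CPM in *mips1 somi2*, and 346 to 358 CPM in Col-0.

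Markers of other leaf cells also differed between the genotypes. All 5 epidermis markers were called lower in *mips1*, the largest being *KCS10* (-1.24 ± 0.09) and *ATML1* (-1.21 ± 0.11), and 3 of 5 higher and 1 lower in *somi2* (4 and 0 under scaling by library totals alone), with *LTP1* at 0.73 ± 0.08. Their sum was 599 to 618 CPM in *mips1*, 1498 to 1516 CPM in *somi2*, 1480 to 1616 CPM in *mips1 somi2*, and 1117 to 1191 CPM in Col-0. All 4 mesophyll markers were called lower in *mips1* and in *somi2*, the largest being *RBCS2B* (-1.99 ± 0.08) in *mips1* and *LHCB1.3* (-0.73 ± 0.06) in *somi2*. Under scaling by library totals alone 2 of the 4 were called lower in *somi2*. Of 4 vascular markers, 2 were called lower in *mips1* (background 37.1%) and 1 in *somi2* (background 23.6%), *APL* in both. In each, 1 was higher under scaling by library totals alone. The part of these cell types in the values of the lineage genes was not tested.

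**Figure D4:**
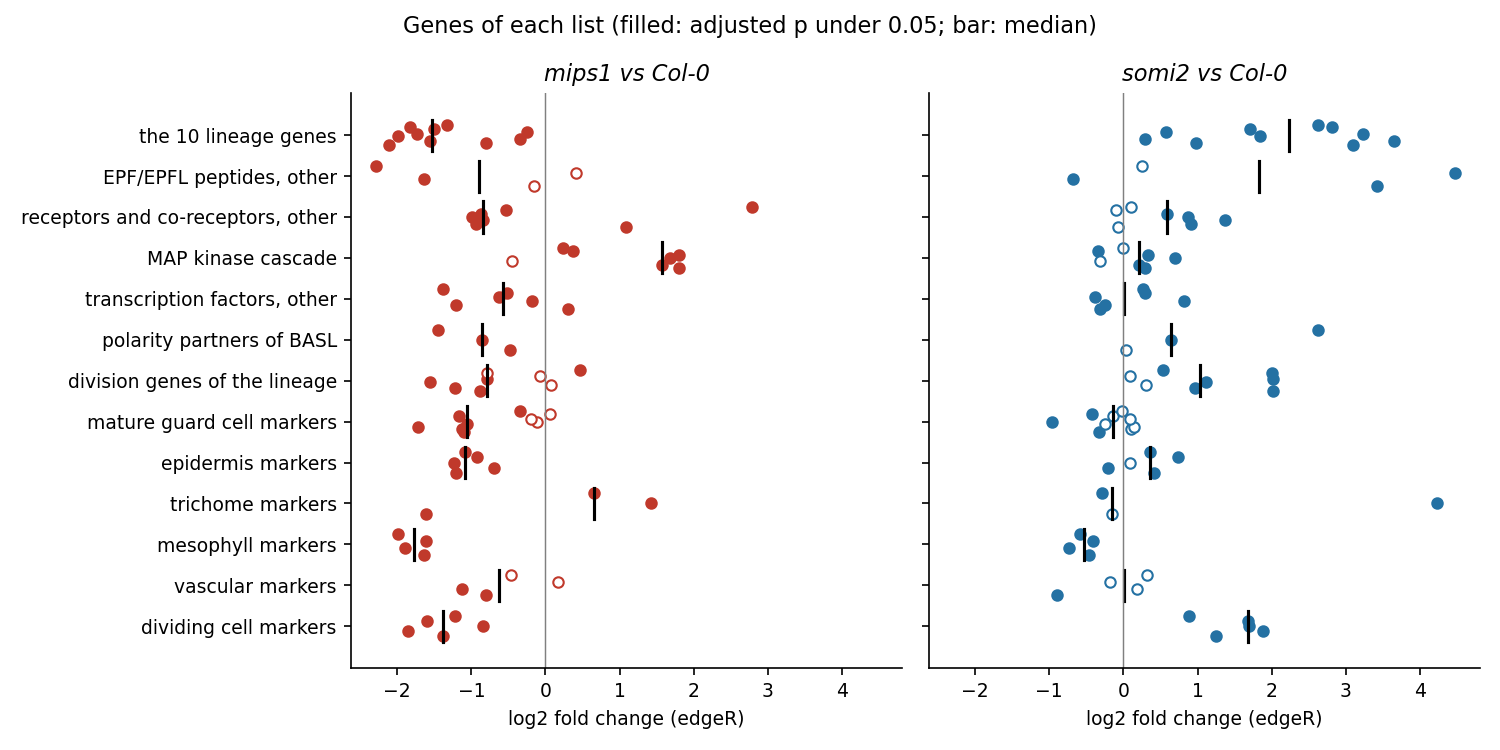
log2 fold change (x axis, same scale in both panels) of the genes of each list in *mips1* (left) and *somi2* (right) against Col-0. Filled points had an adjusted p under 0.05 in edgeR, and the black bar is the median of the list (*GL1*, without counts in Col-0, is left out). The lineage genes had a median of -1.53 in *mips1* and 2.23 in *somi2*, and the mature guard cell markers -1.05 and -0.14. Under scaling by library totals alone 4 of 9 guard cell markers were called higher in *somi2*, and so were 11506 of the 23916 tested genes.

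Among 20813 tested genes outside the lists with a mean of at least 50 counts, those whose log2 CPM followed *SPCH* most closely over the 8 libraries were AT3G05600 (Pearson's r = 0.999), *ROPGEF6*, AT4G21820, *AGP31* and AT4G14330, all with r of 0.999 after rounding. The libraries fall into 4 genotypes, so these points are not independent of each other, and 335 genes exceeded 0.99. Within the 10 lineage genes, r with *SPCH* over the same 8 libraries was lowest for *FAMA* (0.959) and highest for *BASL* (0.996).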

How the data were processed

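RNA from pooled rosette leaves was sequenced by the authors as single-end reads after poly(A) selection, trimmed with Trimmomatic, mapped to TAIR10 with STAR 2.7.0d and counted over Araport11 exons with featureCounts 1.6.3, with a minimum mapping quality of 10, multi-mapping reads counted, reads over several genes given to each, and no strand option. The study names a directional library kit and the labels a DNA kit. The deposited values are raw counts per gene, and the exon length in another column was used for levels per kilobase. Tables of normalized counts and of the authors' fold changes and p-values were not used. Counts were fitted here with edgeR 4.0.16 (R 4.3.3; TMM, filterByExpr, robust quasi-likelihood, 1 factor of 4 genotypes, 8 libraries, 4 residual degrees of freedom), and calls had an adjusted p under 0.05 over 23916 genes. DESeq2 1.42.0, which the study used, other scalings and filters, and leaving out each library were alternatives. The scripts were tested on simulated data. From each list beyond the lineage genes, at most the 2 largest changes in each direction per comparison are named, among called genes with no overlap between libraries. Genes and lists were chosen with earlier results of these data known, and lists gave no test of their own. AT5G10890 and AT1G22690 carry no other symbol in the RefSeq table and are given by locus. Promoter letters came from TAIR10.1. Intervals are 95%. Counting intervals and the limit of 3 counts cover counting error only.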

Additional observations from a re-analysis of the deposited data

Results flagged for a closer look

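By the interaction term of the edgeR fit, the *mips1* effect differed between the *somi2* and the Col-0 background for 10 of 10 stomatal lineage genes. The background was 30.8% of all tested genes called positive. Other mutations may differ between *mips1 somi2* and *somi2*, and the effect of *mips1* cannot be told apart from them. The effect in *somi2* minus that in Col-0 (log2) was 2.41 for *BASL*, 2.16 for *SPCH*, 2.04 for *POLAR*, 1.94 for *MUTE*, 1.89 for *EPF2*, 1.75 for *SDD1*, 1.53 for *TMM*, 0.61 for *EPF1*, 0.57 for *FAMA* and 0.33 for *SCRM*. The call of *EPF1* was lost under DESeq2, with library totals alone and without some single libraries. That of *SCRM* was lost with library totals alone.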

How the results depend on the processing

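In the comparisons with Col-0 and with *mips1*, between 8 and 10 of the 10 lineage genes were called in the stated direction under every alternative run. In *mips1 somi2* against *somi2* the number called higher was 1, against 2 with RLE size factors, 5 with library totals alone, 3 with no filter, 2 with at least 10 counts in every library, 7 with only the 2 genotypes, 3 without organelle genes, and 0 to 7 when each library was left out. The median log2 change of the 10 ranged between -1.60 and -1.21 in *mips1* and between 2.17 and 2.50 in *somi2*. With library totals alone *SCRM* in *mips1* was at 0.075 and *MUTE* in *mips1 somi2* against *somi2* at 0.055. That scaling moved the median gene by 0.30 and 0.105 in these comparisons, relative to which *SCRM* stayed at -0.22 and *MUTE* at -0.05, with no change of sign. *MUTE* ranged between -0.13 and 0.043 when each library was left out, positive without *somi2* replicate 1 (0.043) and without *mips1 somi2* replicate 2 (0.014), and the cause was not tested. Over all genes, those called higher in *mips1 somi2* against *somi2* numbered 2023, against 4172 with library totals alone, 3710 with only the 2 genotypes and 884 to 3652 when each library was left out. Those called lower numbered 2583, against 1476 with library totals alone and 1201 to 3939 when each library was left out. With library totals alone, 12033 genes were higher and 5813 lower in *mips1*, against 8602 and 8877, 11506 and 2109 in *somi2*, against 6129 and 5646, and 13721 and 2848 in *mips1 somi2* against Col-0, in place of 7428 and 7338.

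The correlation between genotypes of the deviations of same-numbered libraries ranged between -0.22 and 0.21. With 2 libraries for each genotype this cannot tell whether the replicate numbers pair the libraries. With the replicate number as a block the called lineage genes numbered 10 of 10 in *mips1* and in *somi2* against Col-0, 1 of 10 was called in *mips1 somi2* against *somi2*, and 1814 genes over all were called higher there. With the numbers of *somi2* and *mips1 somi2* crossed, a choice made after seeing the data like the one without organelle genes, 3 of 10 were called there. Low counts in *mips1* (10 to 39 for *SPCH*, *MUTE*, *EPF2*, *BASL* and *POLAR*) limit the precision of their falls.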

Other observations

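With 0 counts of the trichome gene *GL1* in both *mips1* and both Col-0 libraries, up to 0.0419 CPM in *mips1* and 0.0716 CPM in Col-0 is allowed (3 counts in the shallower library). It had 2.26 and 2.40 CPM in *somi2* and 2.65 and 3.34 CPM in *mips1 somi2*, at least 32.6-fold higher in *somi2* than in Col-0 and at least 71.5-fold higher in *mips1 somi2* than in *mips1*. *GL3*, another regulator of leaf hairs, had 0.168 and 0.173 CPM in *mips1*, 1.12 and 1.28 CPM in *somi2*, 1.67 and 2.04 CPM in *mips1 somi2*, and 0.0239 and 0.0824 CPM in Col-0 (1 and 7 counts). *GL3* was called higher in *mips1* (1.43 ± 0.47, adjusted p = 0.016, edgeR) and in *somi2*. *TTG1*, a WD-repeat partner of these factors, had 65.9 and 67.7 CPM in *mips1*, 34.5 and 34.8 CPM in *somi2*, 31.1 and 30.0 CPM in *mips1 somi2*, and 41.3 and 43.3 CPM in Col-0, with log2 fold changes of 0.66 ± 0.06 in *mips1* and -0.29 ± 0.06 in *somi2* (adjusted p = 8.7e-07 and 0.0025, edgeR). *GL2* fell by 1.62 ± 0.17 on the log2 scale in *mips1* and stood at -0.16 ± 0.17 in *somi2*, both against Col-0. Of the 4 trichome genes listed, then, 2 were called higher and 1 lower in *mips1* (backgrounds 36.0% and 37.1%). In *somi2*, 2 were called higher and 1 lower (backgrounds 25.6% and 23.6%), and none was lower under scaling by library totals alone.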
